A study of Mus musculus with 5 samples.

Results

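The 10 genes described here mark pro-B and pre-B cells, the marrow precursors that assemble the first antigen receptor of the B lineage. They are Vpreb1, Vpreb2, Vpreb3, Igll1, Rag1, Rag2, Dntt, Ebf1, Il7r and Cd93, chosen by name, and all 10 were found among the 55291 gene symbols of each count file. RNA came from mouse bone marrow and was labelled as that of monocytes, in 2 Tet2 mutant samples (replicates 2 and 3) and 3 wild-type samples (replicates 1, 2 and 3). The Tet2 protein oxidises methylated cytosines, and mutations of its gene are common in clonal disorders of the myeloid lineage. The sources used here give neither the allele, any Cre driver, the strain and age of the mice, nor the way the cells were isolated. No label says that the samples of a genotype came from separate mice, so the p-values reflect only how far these samples differ among themselves, and that spread may be technical.

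A pro-B cell rearranges its heavy chain genes with the recombinase encoded by Rag1 and Rag2, and the polymerase encoded by Dntt adds bases at the joins. A pre-B cell then pairs the new heavy chain with a surrogate light chain made from VpreB (Vpreb1, Vpreb2) and lambda 5 (Igll1), while Ebf1 sets the B-lineage programme and the receptor encoded by Il7r carries the interleukin-7 signal that mouse precursors need. Mature B cells no longer express the surrogate light chain or the recombinase genes, but they keep the receptor chains encoded by Cd79a and Cd79b.

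Upstream sequences are shown for Igll1 and Vpreb1, which lie close together on chromosome 16 and encode the surrogate light chain, and for Rag1 on chromosome 2, because all 3 were high in wild-type replicates 1 and 2 and low in the other libraries. Each is the 250 bases before the gene start in RefSeq (GRCm38.p6), on the minus strand and read 5′ to 3′, at chr16:16863986-16864235, chr16:16869256-16869505 and chr2:101649533-101649782. Capitals mark the EBF1 palindrome CCCNNGGG and the E-box CAGNTG, the kind of site that the E2A protein encoded by Tcf3 is known to bind.
Igll1: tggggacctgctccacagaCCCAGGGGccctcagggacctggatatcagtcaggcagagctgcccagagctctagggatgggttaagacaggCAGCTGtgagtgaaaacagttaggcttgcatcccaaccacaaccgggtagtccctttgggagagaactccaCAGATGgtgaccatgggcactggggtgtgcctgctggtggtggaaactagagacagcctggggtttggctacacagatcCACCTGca
Vpreb1: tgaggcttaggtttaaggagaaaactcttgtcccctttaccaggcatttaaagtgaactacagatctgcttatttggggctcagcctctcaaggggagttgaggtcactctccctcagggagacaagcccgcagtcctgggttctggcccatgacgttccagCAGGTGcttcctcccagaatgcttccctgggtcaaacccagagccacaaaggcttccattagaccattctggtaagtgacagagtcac
Rag1: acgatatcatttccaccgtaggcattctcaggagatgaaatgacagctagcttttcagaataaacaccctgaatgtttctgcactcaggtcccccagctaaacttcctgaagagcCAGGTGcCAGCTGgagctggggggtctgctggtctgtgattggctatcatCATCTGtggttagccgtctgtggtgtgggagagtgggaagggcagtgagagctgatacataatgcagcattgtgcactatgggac
The Vpreb1 window lies inside the span that GENCODE M21 gives this gene, whose start there is further upstream than in RefSeq. Promoter windows, which add 50 bases after the start, were held for 9 of the 10 genes and not for Cd93, with 2 windows for Ebf1 and so 10 windows in all. On either strand the CAGNTG E-box was present in 7 of the 10 windows, against 51.4% of 32851 promoter windows of the same 300 bases. The looser E-box CANNTG, which includes it, was present in 9 of 10, the exception being 1 of the Ebf1 windows, against 72.3%. The EBF1 palindrome was found in 1 of 10, Igll1 at position -231, against 13.7%. The motifs are letter matches and show no binding.

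Gene counts summed to 17459808 and 60508381 in Tet2 mutant replicates 2 and 3, and to 53789308 to 72414875 in the wild-type libraries. Levels are given as CPM, the count scaled to a fixed library total, and a level of 3 counts, taken as the floor, corresponds to 0.172 and 0.0496 CPM in Tet2 mutant replicates 2 and 3 and to 0.0414 to 0.0558 CPM in the wild type. Fold changes come from edgeR's quasi-likelihood fit with TMM scaling, and with library totals alone as the scale the median of all log2 fold changes moved by -0.51. A library's set of Xist and Y-linked transcripts did not follow genotype. Xist reached 19.8 and 18.9 CPM in the mutant libraries, in the order of replicates 2 and 3, and 0.219, 0.207 and 36.8 CPM in the wild type, in the order of replicates 1 to 3, and this order is used throughout. Ddx3y, a gene of the Y chromosome, stood at 10.7 and 1.09 CPM in the mutant libraries and at 83.4, 80.0 and 0.186 CPM in the wild type. Xist was thus high in the mutant libraries and wild-type replicate 3 and low in wild-type replicates 1 and 2, while Tet2 mutant replicate 2 held both Xist and a Ddx3y level well above that of wild-type replicate 3. The sources used here do not give the sex of the mice or say whether animals were pooled. Because both libraries low in Xist are wild type, a difference that goes with Xist class cannot be fully told apart from genotype in any fold change. All 10 monocyte markers listed for the check of the cell type label were detected in every library, with a summed level of 21000 and 17020 CPM in the mutant libraries and 15340 to 17190 CPM in the wild type, most of it Lyz2. The 6 neutrophil markers summed to more, at 34630 and 20070 CPM in the mutant libraries and 42720 to 55030 CPM in the wild type.

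None of the 10 genes passed the test between the genotypes. This compares with 15.0% of the 17062 tested genes called at an adjusted p under 0.05 (edgeR's quasi-likelihood test, Benjamini-Hochberg adjustment), 10.6% higher and 4.43% lower in the mutant. All 10 genes passed the filter on low counts, 1 of them, Dntt, had an unadjusted p under 0.05, as did 39.2% of all genes, and DESeq2 and limma-voom called 2 (both lower) and 0 of them. DESeq2 called 12.5% of all genes lower and limma-voom called 18.8% in either direction. The fitted log2 fold change was negative for 8 of 10, with a median of -2.11, against a median of -0.07 over all tested genes. The spread among the wild-type libraries was wide. The highest wild-type library was 4-fold or more above the lowest for 8 of the 10 genes, against 5.50% of all tested genes, and the median ratio of highest to lowest was 13.6 for the 10 genes and 1.42 for all. Wild-type replicates 1 and 2 were high and wild-type replicate 3 was low in these 8 genes. In bulk RNA, fewer cells of a type and less RNA per cell cannot be told apart.

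**Figure D1:**
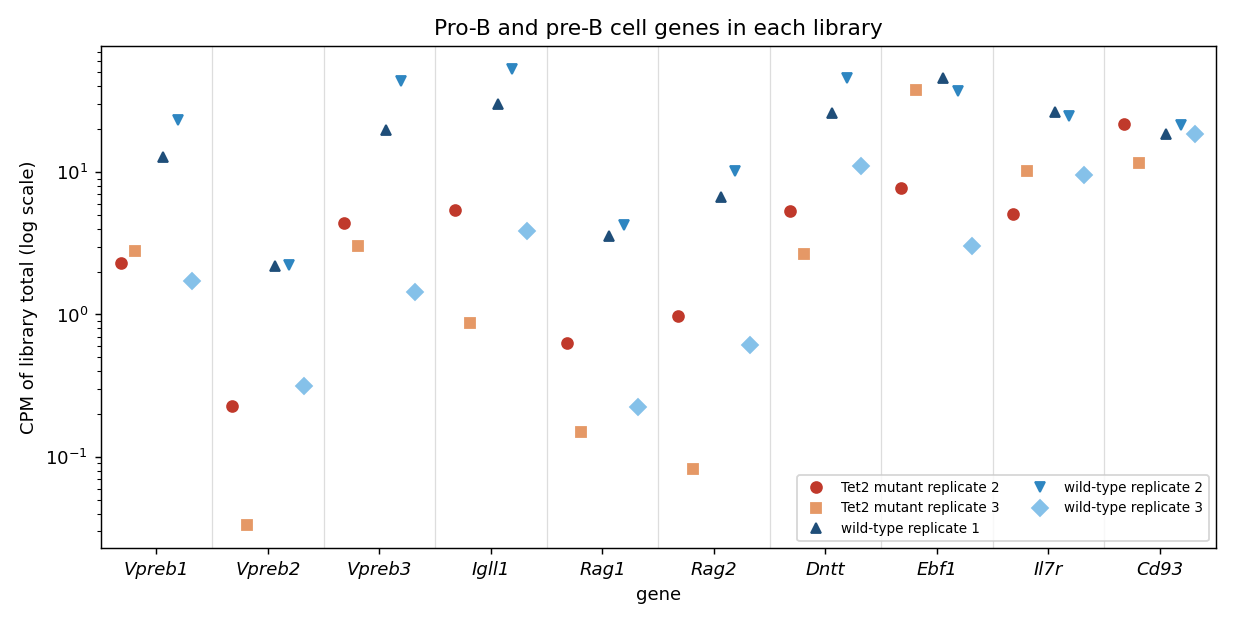
Level of each gene in each library, in CPM of the library total on a log axis, with the Tet2 mutant libraries left of the wild-type libraries. For Igll1 the mutant libraries sit at 5.38 and 0.876 CPM and the wild-type libraries at 30.0, 53.1 and 3.87 CPM, while Cd93 stays between 11.6 and 21.7 CPM throughout.

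Igll1, which encodes the lambda 5 part of the surrogate light chain (chromosome 16, 16860671 to 16863985, minus strand, GRCm38), was the most abundant of the surrogate light chain transcripts in CPM in 4 of the libraries. Its level was 5.38 and 0.876 CPM in the mutant libraries, and 30.0, 53.1 and 3.87 CPM in the wild type. The groups overlapped, because wild-type replicate 3 lay between the mutant libraries. The means were 3.13 ± 3.19 CPM (SD, n = 2) in the mutant and 29.0 ± 24.6 CPM (SD, n = 3) in the wild type. The fitted log2 fold change, mutant over wild type, was -2.60 ± 1.23 (SE; edgeR adjusted p = 0.156). Igll1 was called without Tet2 mutant replicate 2 (log2 fold change -4.67, edgeR adjusted p = 0.0378) and with no filter on low counts (-2.65, adjusted p = 0.00583), and was not called without replicate 3 (-1.75, adjusted p = 0.303). Over all alternative settings its adjusted p ranged from 0.00583 to 0.907.

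Vpreb1 (chromosome 16, 16868403 to 16870843, minus strand), which encodes the V-like part, had 2.29 and 2.79 CPM in the mutant libraries, and 12.7, 23.3 and 1.73 CPM in the wild type. Both mutant libraries were above wild-type replicate 3 and below the other two. The log2 fold change was -1.78 ± 1.01 (SE; edgeR adjusted p = 0.221), and -0.80 without wild-type replicate 2. It overlaps Top3b on the other strand, which stood at 16.2 and 31.2 CPM in the mutant libraries and 67.3 to 94.1 CPM in the wild type, and the sources used here do not give the strand setting of the counting.

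Vpreb2 (chromosome 16, 17980428 to 17981273, plus strand) is a near copy of Vpreb1. Their transcripts in GENCODE M21 were identical at 97.4% of 759 aligned positions, with an identical run of 196 bases, so reads may have been divided between them or dropped, and the Vpreb2 level is uncertain. It had 4 and 2 counts (0.229 and 0.0331 CPM) in the mutant libraries, and 139, 161 and 17 counts (2.17, 2.22 and 0.316 CPM) in the wild type. The count in Tet2 mutant replicate 3 was below the floor of 3 counts, and that in replicate 2 was just above it. Both mutant libraries were below every wild-type library by library totals, while with TMM scaling the groups overlapped. Against wild-type replicate 3, the ratio of CPM was 0.725 (exact 95% counting interval 0.178 to 2.22) in Tet2 mutant replicate 2 and 0.105 (0.0117 to 0.441) in replicate 3. The log2 fold change was -3.23 ± 1.41 (SE; edgeR adjusted p = 0.135), and it was called by DESeq2 (adjusted p = 0.0462) and without Tet2 mutant replicate 2 (edgeR adjusted p = 0.0285), in a range of 0.0285 to 0.801 over the alternative settings.

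Vpreb3 (chromosome 10, 75943057 to 75949657, plus strand) encodes a VpreB-like protein that is found in the secretory pathway of B-lineage cells and is no part of the surface receptor. Its level was 4.35 and 3.02 CPM in the mutant libraries, and 19.9, 43.8 and 1.43 CPM in the wild type. Wild-type replicate 3 was the lowest of the 5 libraries. The log2 fold change was -2.001 ± 1.19 (SE; edgeR adjusted p = 0.237). It was called with no filter on low counts (-2.03, edgeR adjusted p = 0.0464), and the adjusted p ranged from 0.0464 to 0.919 over the alternative settings. Without wild-type replicate 2 the log2 fold change of Vpreb3 was -0.83. Summed over Vpreb1, Vpreb2 and Igll1, the surrogate light chain reached 7.90 CPM (exact 95% Poisson interval 6.64 to 9.34) and 3.70 CPM (3.23 to 4.22) in Tet2 mutant replicates 2 and 3. The sums were 44.8, 78.6 and 5.91 CPM in wild-type replicates 1, 2 and 3, the last with an interval of 5.28 to 6.60. These intervals cover counting error only, since amplified reads without molecular identifiers are not independent molecules.

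Of the recombination genes, Dntt came closest to the threshold. Dntt (chromosome 19, 41029275 to 41059525, plus strand) had 5.33 and 2.66 CPM in the mutant libraries, and 26.1, 45.4 and 10.97 CPM in the wild type. Both mutant libraries were below every wild-type library by library totals and with TMM scaling. Of the 10 genes, 2 (Vpreb2 and Dntt) had this order by library totals, against 46.8% of all tested genes, so the order alone sets neither apart. The means were 3.99 ± 1.89 CPM (SD, n = 2) in the mutant and 27.5 ± 17.3 CPM (SD, n = 3) in the wild type. The log2 fold change was -2.21 ± 0.74 (SE), which did not pass (edgeR adjusted p = 0.0767). Dntt was called with DESeq2 (adjusted p = 0.0143), with library totals alone (edgeR adjusted p = 0.0356), with upper-quartile scaling (0.0445), with no filter (0.00849) and without Tet2 mutant replicate 2 (0.0213). Called lower among all genes were 16.9% with library totals alone, 10.8% with upper-quartile scaling and 4.89% with no filter. Without wild-type replicates 1, 2 and 3 in turn its adjusted p was 0.206, 0.31 and 0.0815, and it reached 0.573 with the Xist class as a covariate.

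Rag1 and Rag2, which encode the subunits of the recombinase, lie next to each other on chromosome 2 (101638282 to 101649501 on the minus strand and 101624718 to 101632529 on the plus strand). Rag2 stood at 0.974 and 0.0826 CPM in the mutant libraries, and at 6.68, 10.2 and 0.614 CPM in the wild type. Rag1 stood at 0.630 and 0.149 CPM in the mutant libraries, and at 3.55, 4.25 and 0.223 CPM in the wild type. For both genes wild-type replicate 3 lay between the mutant libraries. The log2 fold changes were -2.91 ± 1.53 for Rag2 and -2.25 ± 1.41 for Rag1 (SE; edgeR adjusted p = 0.193 and 0.259). Without Tet2 mutant replicate 2, Rag2 was called (-5.74, edgeR adjusted p = 0.0361), in a range of 0.0361 to 0.929 over the alternative settings. Rag1 stood at -3.79 without Tet2 mutant replicate 2 and -1.41 without replicate 3, and Rag2 at -1.91 without replicate 3. The counts behind the mutant values were small, with 17 and 5 for Rag2 and 11 and 9 for Rag1. The gene B230118H07Rik overlaps both and stood at 3.09 and 4.73 CPM in the mutant libraries and 8.79 to 14.2 CPM in the wild type.

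Ebf1, Il7r and Cd93 had other patterns. Ebf1 (chromosome 11, 44617317 to 45008091, plus strand), a transcription factor that is kept in mature B cells, had 7.79 and 37.7 CPM in the mutant libraries, and 45.5, 37.4 and 3.01 CPM in the wild type. It was thus as high in Tet2 mutant replicate 3 as in wild-type replicate 2. The log2 fold change was 0.11 ± 1.01 (SE; edgeR adjusted p = 0.944), with values of -0.33 by library totals alone and -0.07 with upper-quartile scaling. Gm12158, annotated on the other strand and overlapping Ebf1, had 3 and 171 counts in the mutant libraries and 8, 20 and 0 counts in the wild type, so part of the Ebf1 and Gm12158 counts may not be separable.

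Il7r (chromosome 15, 9505788 to 9530176, minus strand), the interleukin-7 receptor alpha chain that T cells also express, stood at 5.10 and 10.2 CPM in the mutant libraries, and at 26.3, 24.8 and 9.59 CPM in the wild type. Its log2 fold change was -0.92 ± 0.57 (SE; edgeR adjusted p = 0.259). It was -0.51 without wild-type replicate 1 and -0.54 without replicate 2. Of 11 T cell markers tested, 6 rose and 0 fell, beside 10.6% and 4.43% of all tested genes. The summed level over the list was 881 and 887 CPM in the mutant libraries and 139.5 to 253 CPM in the wild type. The part of T cells in the Il7r level was not tested.

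Cd93 (chromosome 2, 148436640 to 148443563, minus strand), an early B cell surface protein that myeloid and endothelial cells also carry, was the steadiest. It stood at 21.7 and 11.6 CPM in the mutant libraries, and at 18.5, 21.3 and 18.4 CPM in the wild type. The mutant libraries enclosed the wild-type values. By library totals Tet2 mutant replicate 2 was 1.17, 1.02 and 1.18 times wild-type replicates 1, 2 and 3. The TMM factor, which multiplies the library total, was 0.724 in that library and 1.14 to 1.17 in the wild type. The log2 fold change was 0.35 ± 0.46 (SE; edgeR adjusted p = 0.587), with -0.23 by library totals alone and -0.02 with upper-quartile scaling and with limma-voom. It was called higher without Tet2 mutant replicate 3 (0.83, edgeR adjusted p = 0.032), in a range of 0.032 to 0.982 over the alternative settings. Among 6 endothelial markers 0 were called, beside 15.0% of all tested genes, while DESeq2 called 2 and limma-voom 0. Of the 6, 2 had an unadjusted p under 0.05 (Pecam1 and Vwf), as did 39.2% of all tested genes. The 6 markers summed to 33.6 and 57.2 CPM in the mutant libraries and 29.6 to 46.3 CPM in the wild type.

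**Figure D2:**
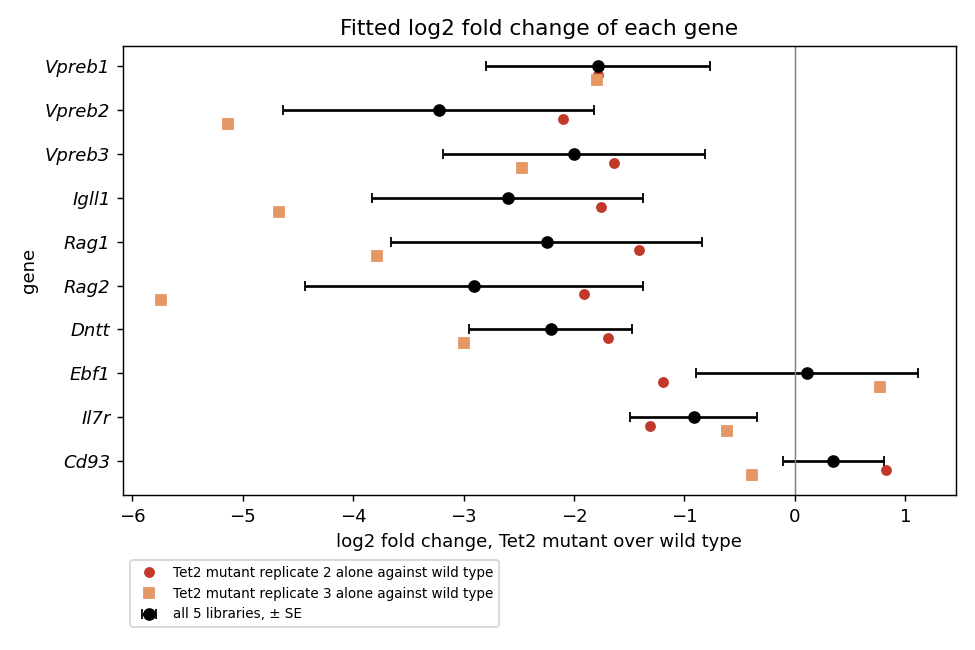
Log2 fold change of Tet2 mutant over wild type for each gene (x axis), with the fit over all 5 libraries in black (± SE) and the fits with a single mutant library in colour. The estimate for Tet2 mutant replicate 3 lies far below that for replicate 2 for Vpreb2, Igll1, Rag1 and Rag2, and above it for Ebf1 and Il7r. For Vpreb2 the estimate for replicate 3 rests on 2 counts in that library, below the floor.

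Compared with the wild type one at a time, the mutant libraries gave different pictures. These fits take the spread from the wild-type libraries and assume the same for the lone mutant library. Tet2 mutant replicate 3 gave 4 called genes of 10, all lower (Vpreb2, Igll1, Rag2 and Dntt), beside 32.2% of 18508 tested genes called lower. Tet2 mutant replicate 2 gave 1 called gene, Cd93, higher, beside 21.0% of 17970 genes called higher. Leaving out a wild-type library gave 0 calls of 10 each time, beside 3.85%, 5.52% and 5.17% of genes called in either direction without wild-type replicates 1, 2 and 3.

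The estimates were different in a fit that took account of the Xist class. In this fit with that class as a covariate, chosen after the data were seen, the genotypes are compared within the libraries high in Xist, so that wild-type replicate 3 alone stands for the wild type. The SEs and p-values then rest on the spread within the mutant libraries and between wild-type replicates 1 and 2, and wild-type replicate 3 is assumed to vary like them. The log2 fold changes were then 0.28 ± 1.12 for Igll1, 1.05 ± 1.13 for Vpreb1, 1.89 ± 1.03 for Vpreb3, 1.31 ± 1.72 for Rag1, 0.33 ± 1.68 for Rag2 and 0.13 ± 0.84 for Il7r, all positive (SE). They were -0.90 ± 1.73 for Vpreb2 and -0.91 ± 0.86 for Dntt, and 3.32 ± 1.01 for Ebf1 and 0.40 ± 0.82 for Cd93. None of the 10 passed (edgeR adjusted p from 0.219 to 0.943), and 0.592% of all tested genes did, so a missed threshold in this fit says little. The libraries low in Xist were all wild type, so no comparison could be made within them.

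Set against transcripts that all B-lineage cells share, the precursor genes were lowest in the mutant libraries. These denominators, Cd79a and Cd79b, were themselves called higher in the mutant, with both mutant libraries above every wild-type library, which lowers the ratios there. For every 100 counts of Cd79a and Cd79b together there were 1.57 counts of Vpreb1, Vpreb2 and Igll1 (exact 95% counting interval 1.32 to 1.86) in Tet2 mutant replicate 2 and 0.0784 (0.0685 to 0.0894) in replicate 3. There were 12.2, 19.1 and 6.44 in wild-type replicates 1, 2 and 3, with 5.73 to 7.21 as the interval in replicate 3. The mutant libraries were below every wild-type library, and the same held for Igll1 over Cd79a and for the sum over Ms4a1, the CD20 gene of mature B cells. In CPM, however, that sum was higher in Tet2 mutant replicate 2 (7.90) than in wild-type replicate 3 (5.91). For this pair of libraries the lower ratio comes from the denominator. All 10 genes had this order when each was set against Cd79a and Cd79b, Cd93 included, as did 74.9% of all tested genes, so the order is not particular to the precursor genes. With 3 and 2 libraries no exact permutation test can pass, and none was made. Within the wild type, replicate 3 was the highest in this measure for Dntt, Il7r and Cd93, and the lowest for the other 7 genes. Dntt had 1.06 and 0.0564 counts per 100 in the mutant libraries and 7.08, 11.1 and 11.9 in wild-type replicates 1, 2 and 3.

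**Figure D3:**
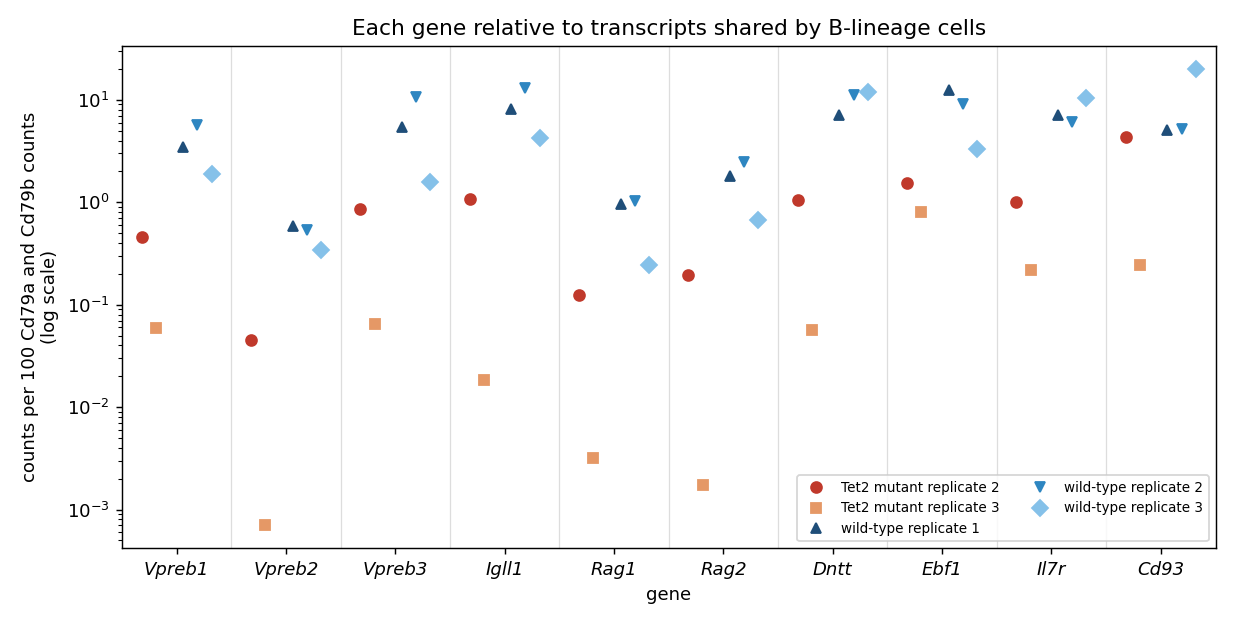
Counts of each gene per 100 counts of Cd79a and Cd79b in the same library, on a log axis, with the Tet2 mutant libraries on the left of each gene. Every gene is lower in both mutant libraries than in any wild-type library, and Igll1 reads 1.07 and 0.0186 in the mutant libraries against 8.13, 12.9 and 4.21 in the wild type.

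The denominators and the other B cell genes were read from the fit over all 5 libraries. In this fit 10.6% of all tested genes were called higher and 4.43% lower. Cd79a and Cd79b, the signalling chains of the B cell receptor, were the 2 genes that rose among 23 tested genes of B-lineage specification and pre-B receptor signalling, and 0 fell. Cd79a stood at 241 and 2527 CPM in the mutant libraries and at 195, 217 and 39.5 CPM in the wild type (log2 fold change 3.61 ± 0.95 SE, edgeR adjusted p = 0.0466). Cd79b stood at 262 and 2192 CPM in the mutant libraries and at 174, 194 and 52.3 CPM in the wild type (3.54 ± 0.82, adjusted p = 0.0362). The median of this list was 0.33, with 10 of 23 fold changes negative and none of those called. The most negative were Arpp21 (-3.54, on 3 and 2 counts in the mutant libraries), Erg (-2.48) and Myb (-2.14). Tcf3 (-0.98) stood at 50.7 and 113 CPM in the mutant libraries and 197 to 245 CPM in the wild type. For 6 of the 23, these included, both mutant libraries were below every wild-type library by library totals, and for 3 above. That lower order held for 46.8% of all tested genes. Called genes of this list numbered 0, 1 and 0 without each wild-type library in turn, beside 3.85%, 5.52% and 5.17% of all tested genes.

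Of 12 mature B cell genes 4 rose and 0 fell, beside 10.6% of all tested genes called higher and 4.43% lower. Their median log2 fold change was 2.10. The fold change was negative for 2 of the 12, Fcer2a (-2.57) and Cr2 (-0.52), neither called. Fcer2a stood at 2.18 and 0.248 CPM in the mutant libraries and at 22.1, 9.40 and 1.39 CPM in the wild type. Cxcr5, the receptor that guides B cells to follicles, stood at 23.1 and 123 CPM in the mutant libraries and at 14.7, 7.86 and 3.33 CPM in the wild type (log2 fold change 3.51 ± 0.76 SE, edgeR adjusted p = 0.0304). Fcmr, the IgM Fc receptor gene, and Cd72, a B cell surface receptor gene, rose by 3.75 ± 0.90 and 2.52 ± 0.65 (adjusted p = 0.0386 and 0.0442), and Ms4a1 was the other. By library totals the groups overlapped for Fcmr and Ms4a1. These stood at 51.0 and 91.9 CPM in Tet2 mutant replicate 2 and at 51.6 and 107 CPM in wild-type replicate 1. In Tet2 mutant replicate 3 they reached 631 and 1002 CPM. With TMM scaling both mutant libraries were above every wild-type library for these genes. Called genes numbered 0, 2 and 2 without each wild-type library in turn, beside 3.85%, 5.52% and 5.17% of all tested genes. Iglc2, a lambda light chain constant gene chosen after its values were seen, reached 324 and 4058 CPM in the mutant libraries and 49.4 to 79.2 CPM in the wild type. Igll1 resembles these constant genes, being identical to Iglc1 at 79.1% of 325 aligned positions, with an identical run of at most 20 bases. Plasma cell genes gave 1 rise of 7, Prdm1 (27.4 and 11.4 CPM in the mutant libraries, 2.14 to 2.79 CPM in the wild type, edgeR adjusted p = 0.0139). Its list had a median of 2.60, with 1 of 7 fold changes negative (Sdc1, -1.57, not called). It had 0 called genes without wild-type replicate 1 and 2 without replicate 2, beside 3.85% and 5.52% of all tested genes.

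Interleukin-7 receptor signalling gave 2 rises of 8 tested genes and 0 falls, beside 10.6% and 4.43% of all tested genes. Il2rg, the common gamma chain that pairs with the Il7r product and is shared with other cytokine receptors of T and NK cells, stood at 606 and 706 CPM in the mutant libraries and at 71.9 to 92.1 CPM in the wild type (log2 fold change 3.55 ± 0.24 SE, edgeR adjusted p = 0.000848). Bcl2, a survival gene, rose by 2.05 ± 0.26 (adjusted p = 0.00545). The list kept 2 called genes without each wild-type library in turn, beside 3.85%, 5.52% and 5.17% of all tested genes. The end-joining genes that seal the breaks made by the recombinase gave 0 calls of 12, with 2 at an unadjusted p under 0.05 (Atm and Xrcc6, with log2 fold changes of 2.25 and -0.87, edgeR adjusted p = 0.0658 and 0.0835) and 3 called by DESeq2 and 0 by limma-voom. Their median was -0.56.

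Within a library, Igll1 kept a near-constant proportion to Vpreb1 in 4 of the 5 libraries, while Dntt, Il7r and Vpreb3 varied more against them. These ratios were chosen after the values were seen, and no test was made. There were 2.35 Igll1 counts per Vpreb1 count in Tet2 mutant replicate 2 (exact 95% counting interval 1.61 to 3.49), against 2.37, 2.28 and 2.24 in wild-type replicates 1, 2 and 3, although the level of Igll1 ranged from 3.87 to 53.1 CPM over these 4 libraries. In Tet2 mutant replicate 3 the ratio was 0.314 (0.226 to 0.429), with 53 Igll1 and 169 Vpreb1 counts. Rag2 stayed near Igll1, with 0.181 and 0.0943 Rag2 counts per Igll1 count in the mutant libraries and 0.223, 0.192 and 0.159 in the wild type. The interval in Tet2 mutant replicate 3, from 0.0294 to 0.234, rests on 5 Rag2 counts and includes the other libraries. Dntt per Igll1 was 0.989 and 3.04 in the mutant libraries and 0.87, 0.855 and 2.84 in the wild type, so that Tet2 mutant replicate 3 and wild-type replicate 3 were alike in this ratio and apart from the others. Il7r per Igll1 was 0.947 and 11.6 in the mutant libraries and 0.877, 0.467 and 2.48 in the wild type. Vpreb3 per Vpreb1 was 1.90 and 1.08 in the mutant libraries and 1.57, 1.88 and 0.828 in the wild type.

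**Figure D4:**
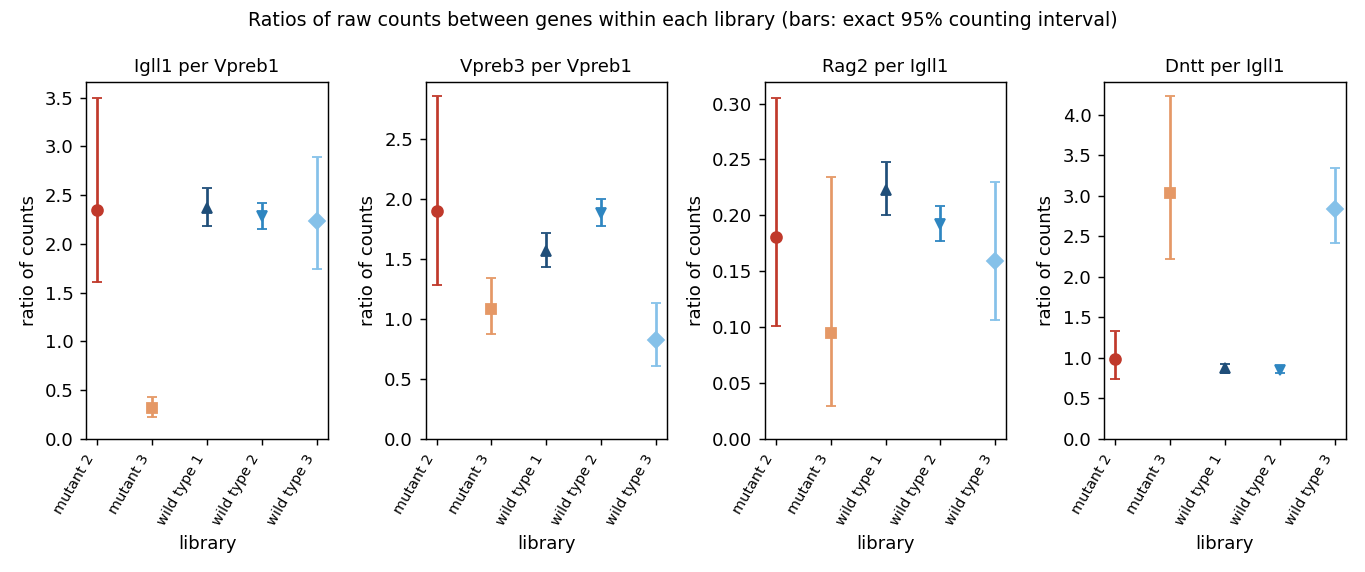
Ratio of raw counts between pairs of genes in each library, with exact 95% counting intervals as bars and the Tet2 mutant libraries on the left. Igll1 per Vpreb1 is 2.35 in Tet2 mutant replicate 2 and 2.24 to 2.37 in the wild type, and 0.314 in Tet2 mutant replicate 3.

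Per kilobase of exon in GENCODE M21, the order of the mean levels differed between the genotypes. The length used was that of all annotated exons of a gene together. For Igll1 this was 2164 bases, while the transcript aligned to Iglc1 had 870 bases. The order depends on this choice, and other lengths were not tested. In the mutant the order was Vpreb3 (4.29 ± 1.09 CPM per kb, SD, n = 2), Cd93 (2.49 ± 1.08), Ebf1 (2.33 ± 2.17), Vpreb1 (2.12 ± 0.296), Dntt (1.74 ± 0.822), Il7r (1.64 ± 0.774) and Igll1 (1.45 ± 1.47), with Vpreb2, Rag2 and Rag1 at 0.173, 0.154 and 0.0589 CPM per kb. In the wild type it was Vpreb3 (25.3 ± 24.7 CPM per kb, SD, n = 3), Igll1 (13.4 ± 11.4), Dntt (11.99 ± 7.53), Vpreb1 (10.47 ± 8.99), Il7r (4.34 ± 1.98), Ebf1 (2.93 ± 2.31) and Cd93 (2.91 ± 0.246), with Vpreb2, Rag2 and Rag1 at 2.07, 1.70 and 0.405 CPM per kb. Neighbours in either order differed by less than the larger of their SDs, apart from Vpreb3 and Cd93 in the mutant.

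The genes whose profile over the 5 libraries was most like that of Igll1 were Uchl1, Plscr4, Gfra1, Hoxa9 and Rps4l, by Euclidean distance of centred log2(CPM + 0.1) values among 11576 genes with a mean of 1 CPM or more. Their distances were 0.455 to 1.0. Of the other precursor genes, Rag2 was nearer than any of these, at 0.247, and Vpreb2 and Rag1 followed at 1.30 and 1.35, while Vpreb1 lay at 2.46 and Ebf1 at 4.76. Uchl1, a deubiquitinase gene best known from neurons, stood at 0.401 and 0.0165 CPM in the mutant libraries (7 and 1 counts) and at 2.24, 4.53 and 0.26 CPM in the wild type.

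Other cells that can hold members of the set were followed by their markers. Beside the counts that follow, 10.6% of all tested genes were called higher and 4.43% lower, and 39.2% had an unadjusted p under 0.05. Stem and myeloid progenitor genes gave 0 calls of 8, with 6 at an unadjusted p under 0.05, 5 called by DESeq2 and 6 by limma-voom. Their summed level was 2658 and 481 CPM in the mutant libraries and 8629 to 10730 CPM in the wild type, and the smallest p belonged to Ctsg and Flt3 (log2 fold changes of -2.06 and 1.40, edgeR adjusted p = 0.057 and 0.0602). Cycling genes gave 0 calls of 8, with 2 at an unadjusted p under 0.05 (Ccnb1 and Cdk1), while DESeq2 called 0, limma-voom 6, edgeR with no filter 6 and edgeR with library totals alone 3. The cycling genes summed to 1119 and 355 CPM in the mutant libraries and 2171 to 2746 CPM in the wild type. Wild-type replicate 3 was not the lowest wild-type library in either sum. Leaving out each wild-type library in turn called 0 progenitor and 0 cycling genes, beside 3.85%, 5.52% and 5.17% of all tested genes. Of 6 plasmacytoid dendritic cell genes 2 rose (Bst2 and Ly6d, edgeR adjusted p = 0.0175 and 0.0369). Siglech had the 1 negative log2 fold change of that list (-2.61, not called). It stood at 6.24 and 1.04 CPM in the mutant libraries and 29.2 to 38.1 CPM in the wild type. Of 5 NK cell genes 2 rose (Klrd1 and Eomes, adjusted p = 0.00699 and 0.0451). The other direction held for 2, Klrb1c (-2.245) and Ncr1 (-0.93), neither called. Klrb1c stood at 1.20 and 1.39 CPM in the mutant libraries and 4.16 to 15.2 CPM in the wild type. Of 10 monocyte genes Csf1r rose and Itgam fell (adjusted p = 0.0105 and 0.0408). Padi4 was the 1 call among 6 neutrophil genes and fell (adjusted p = 0.0362), and 0 of 4 erythroid genes were called, with 1 at an unadjusted p under 0.05 (Klf1), while DESeq2 called 0 and limma-voom, library totals alone, upper-quartile scaling and no filter 1 each. All 6 pancreatic acinar genes rose, with summed levels of 298 and 926 CPM in the mutant libraries and 2.11 to 2.83 CPM in the wild type. The T cell genes with the smallest p were Cd3g, Trbc2 and Trac, which rose by 4.02, 3.62 and 3.95 on the log2 scale (edgeR adjusted p = 0.000848, 0.0013 and 0.00209). The part of these cells in the levels of the 10 genes was not tested.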

How the data were processed

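RNA-seq libraries of mouse bone marrow cells were grouped by the labelled genotype, as 2 Tet2 mutant and 3 wild-type samples. The authors deposited raw gene counts per library, 1 file a sample with 55291 symbols; Trimmomatic, STAR and the mm10 build are named in the submitters' processing notes, while the sources used here do not give the read counter and its strand setting. All genes were fitted with edgeR 4.0.16 (R 4.3.3): filterByExpr, TMM, quasi-likelihood test, Benjamini-Hochberg adjustment over 17062 genes and a threshold of 0.05. DESeq2 1.42.0, limma-voom (limma 3.58.1), other scalings and filters, a replicate block, leaving out each library and, chosen after the data were seen, the Xist class (10 CPM or more) as a covariate were alternatives. The scripts were tested on simulated data. Exact 95% intervals cover counting error only. No pair of libraries agreed within sampling noise. The common biological coefficient of variation was 0.507.

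The 10 genes and all lists were chosen with earlier results of these data known. Named were all 10 genes, of each other list up to 3 called genes with the smallest p (or, with none called, up to 2 with the smallest unadjusted p), and the 5 genes nearest to Igll1 in profile. Xist, Ddx3y, Iglc1, Iglc2, Ms4a1, Lyz2, Siglech, Klrb1c, Ncr1, Fcer2a, Cr2, Sdc1, Arpp21, Erg, Myb, Tcf3 and the overlapping genes were named after their values were seen. Positions are from GENCODE M21 (GRCm38).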

Additional observations from a re-analysis of the deposited data

How the results depend on the processing

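The 2 mutant libraries, 1 of them with the lowest depth of all, limit every comparison, and where a value moved the cause was not tested unless the setting itself leaves out genes or libraries. Numbers of called genes follow, in the order all, higher, lower where 3 are given, beside 2556, 1801 and 755 in the fit of the report. Library totals alone gave 4058, 1181 and 2877, and 1 of the 10 precursor genes (Dntt, -2.79), with -0.33 for Ebf1 and -0.23 for Cd93. It called 5 B-lineage specification genes, 1 end-joining, 2 mature B, 6 progenitor, 4 monocyte, 2 neutrophil, 1 erythroid and 3 cycling genes. Upper-quartile scaling gave 1837 lower genes and 1 precursor gene (Dntt, -2.58), with -0.066 for Ebf1 and -0.015 for Cd93. It called 4 B-lineage specification genes, 1 NK, 5 progenitor, 2 neutrophil, 1 erythroid and 2 cycling genes. DESeq2 gave 5109, 2972 and 2137, and 2 precursor genes (Vpreb2, -3.12, and Dntt, -2.16). It called 7 B-lineage specification genes, 4 interleukin-7, 3 end-joining, 6 plasma cell, 5 progenitor, 4 monocyte and 2 endothelial genes. Limma-voom gave 1365 lower genes and -0.022 for Cd93, and called 4 B-lineage specification genes, 3 plasma cell, 6 progenitor, 5 monocyte, 1 erythroid and 6 cycling genes. No filter gave 4557, 3059 and 1498, and 3 precursor genes (Vpreb3, -2.03, Igll1, -2.65, and Dntt, -2.25). It called 10 B-lineage specification genes, 1 end-joining, 11 mature B, 5 plasma cell, 4 plasmacytoid dendritic, 7 progenitor, 6 monocyte, 2 neutrophil, 1 endothelial, 1 erythroid and 6 cycling genes. A filter of 1 CPM in at least 3 libraries gave 472 lower genes, 1 B-lineage specification, 2 mature B and 1 acinar gene, and left Vpreb2, Rag1 and Rag2 untested.

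The replicate block, over libraries 2 and 3 of each genotype, gave 1445, 1195 and 250, with 0 precursor genes. It called 7 B-lineage specification genes, 9 mature B, 2 plasma cell, 1 NK, 5 progenitor, 2 erythroid and 7 cycling genes. No label pairs the libraries, and the deviations of same-numbered libraries correlated at -0.03 and -0.02. With the Xist class as a covariate, chosen after the data were seen, there were 101, 101 and 0, and Vpreb1, Vpreb3, Igll1, Rag1, Rag2 and Il7r stood at 1.05, 1.89, 0.28, 1.31, 0.33 and 0.13. It called 1 interleukin-7, 1 mature B and 1 T cell gene, and 0 in the B-lineage specification, plasma cell, NK, plasmacytoid dendritic, monocyte and neutrophil lists. Igll1 per 100 Cd79a was 2.23 and 0.0347 in Tet2 mutant replicates 2 and 3 and 15.4, 24.5 and 9.78 in wild-type replicates 1, 2 and 3, and the surrogate light chain per 100 Ms4a1 was 8.60 and 0.369 in the mutant and 41.8, 107.8 and 23.4 in the wild type.

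Leaving out 1 library at a time gave 622 to 10862 called genes, 616 to 4904 higher, 6 to 5958 lower, and 0 to 4 precursor genes. The log2 fold changes ranged from -2.15 to -0.80 for Vpreb1, -5.14 to -2.10 for Vpreb2, -2.47 to -0.83 for Vpreb3, -4.67 to -1.74 for Igll1, -3.79 to -1.41 for Rag1, -5.74 to -1.91 for Rag2, -2.997 to -1.53 for Dntt, -1.20 to 0.82 for Ebf1 (-0.19 without wild-type replicate 3), -1.31 to -0.51 for Il7r and -0.38 to 0.83 for Cd93. Called genes ranged from 0 to 13 for B-lineage specification, 2 to 4 for interleukin-7, 0 to 8 for end joining, 0 to 10 for mature B, 0 to 6 for plasma, 1 to 4 for NK, 1 to 5 for plasmacytoid dendritic, 0 to 7 for progenitor, 1 to 6 for monocyte, 0 to 5 for neutrophil, 0 to 6 for endothelial, 0 to 4 for erythroid and 0 to 7 for cycling genes.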
